A study of Homo sapiens with 2 samples.

Results

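Integrins are the cell surface receptors that hold cells to the extracellular matrix, and 9 of their subunit genes are described here in the established human line MDA-MB-231, derived from a triple-negative breast cancer and grown in L15 medium with 10% FBS. The genes were chosen by name: the 5 alpha subunits ITGA2, ITGA3, ITGA5, ITGA6 and ITGAV and the 4 beta subunits ITGB1, ITGB3, ITGB4 and ITGB5. All 9 were among the 12918 genes of the deposited table, and all 9 were among the 11046 that reached 1 FPKM (mapped fragments per kilobase of the transcript, as a rate that allows for library size) in at least 1 library. The groups were cells given the THAP7-AS1 Smart Silencer (a commercial reagent that combines siRNAs with antisense oligonucleotides) and cells given si-NC as negative control, both by transfection and both sampled at 48 h. The question was how mRNA levels differ after silencing of the long noncoding RNA THAP7-AS1. Each group had 1 library, so no difference given here has a replicate check and none was tested.

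The control column of the table is named si-nc. The other column, si-v, was taken as the silencer library by elimination and is called the si-v library throughout. The silencing could not be checked, since 0 of the 3 annotated THAP7-AS1 transcripts were listed, and each direction depends on the column assignment. Of the listed transcripts that could be matched to an annotation, 99.7% were protein coding. The absence of this noncoding RNA therefore gives no reading of its level. All 7 markers fixed for the line were detected in both libraries, with a sum of 1637 FPKM in the si-v library and 1967 FPKM in the si-NC library: VIM, KRT8 and KRT18 were higher in the si-v library, and CD44, AXL, EGFR and FOSL1 lower. The part of these differences in the integrin values was not tested. Of 5 genes fixed as low or absent there, CDH1 and GRHL2 were below 1 FPKM in both libraries, ESR1 was listed at 0, PGR was not analysed here, and ERBB2 stood at 17.4 FPKM in the si-v library and 4.65 FPKM in the si-NC library. Of 11 leukocyte, endothelial, fibroblast and platelet markers, CD14 stood at 0.367 FPKM in the si-v library and 0.484 FPKM in the si-NC library, ITGA2B stood at 0.026 FPKM in the si-v library and was listed at 0 in the si-NC library, and the other 9 were not analysed here. Across all genes past 1 FPKM the median log2 ratio was 0.00, with an SD of 0.49 over genes.

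An integrin is a heterodimer of 1 alpha and 1 beta chain, and the pair decides which matrix protein is bound. The alpha 2 chain with beta 1 binds collagen, the alpha 3 and alpha 6 chains bind laminins, alpha 6 with either beta 1 or beta 4, and the alpha 5 and alpha V chains bind ligands with the tripeptide RGD, such as fibronectin and vitronectin. The cytoplasmic tails, short in most chains and long in beta 4, carry no enzyme and act by binding adaptors such as talins and kindlins, and alternative splicing changes the tail of several chains. In breast epithelium, alpha 6 beta 4 anchors cells to the basement membrane at hemidesmosomes.

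Several of the differences below lie between transcripts of a gene, so the coding segments that set those transcripts apart are shown first. They come from the GENCODE release 29 transcripts, with coordinates on GRCh38. The deposited values were made on hg19 and were joined to these transcripts by identifier only. Capitals mark the segment that only some of the transcripts hold, and lower case marks 15 bases of the neighbouring shared coding sequence, for X1 and X2 as in transcripts that hold only that inner segment. ITGA6 has 2 alternative ends of its coding sequence, known as the A and B tails, and 2 alternative inner segments in the extracellular part, known as X1 and X2. The A tail is at chr2:172501772-172501876, the B tail at chr2:172504091-172504249, X1 at chr2:172470974-172471105 and X2 at chr2:172472774-172472890, all on the plus strand.
ITGA6 A tail: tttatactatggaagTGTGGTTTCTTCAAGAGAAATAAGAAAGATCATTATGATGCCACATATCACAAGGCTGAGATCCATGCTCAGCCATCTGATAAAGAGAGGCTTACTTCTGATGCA
ITGA6 B tail: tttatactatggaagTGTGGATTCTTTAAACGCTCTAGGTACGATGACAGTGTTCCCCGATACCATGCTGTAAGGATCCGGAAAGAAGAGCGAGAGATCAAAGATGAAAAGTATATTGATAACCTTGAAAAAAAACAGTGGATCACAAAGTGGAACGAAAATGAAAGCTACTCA
ITGA6 X1: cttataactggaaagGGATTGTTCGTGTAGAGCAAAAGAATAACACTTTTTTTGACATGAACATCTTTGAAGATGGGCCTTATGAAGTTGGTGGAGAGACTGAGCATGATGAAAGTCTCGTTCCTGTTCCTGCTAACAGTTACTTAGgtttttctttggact
ITGA6 X2: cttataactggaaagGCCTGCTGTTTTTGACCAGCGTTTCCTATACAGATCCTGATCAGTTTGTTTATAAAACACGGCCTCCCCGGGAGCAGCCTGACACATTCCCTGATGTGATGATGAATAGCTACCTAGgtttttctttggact
ITGA3 also has an A tail, at chr17:50088225-50088332, and a B tail, at chr17:50089110-50089262, both on the plus strand.
ITGA3 A tail: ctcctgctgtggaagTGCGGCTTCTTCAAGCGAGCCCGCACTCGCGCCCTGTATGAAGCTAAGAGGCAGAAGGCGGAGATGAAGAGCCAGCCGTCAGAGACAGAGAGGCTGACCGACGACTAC
ITGA3 B tail: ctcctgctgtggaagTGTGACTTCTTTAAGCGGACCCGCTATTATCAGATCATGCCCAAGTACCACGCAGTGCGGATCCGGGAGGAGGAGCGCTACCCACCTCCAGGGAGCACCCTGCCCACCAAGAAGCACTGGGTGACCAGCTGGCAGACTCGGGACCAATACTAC
ITGAV has an inner segment of 108 bases in 2 exons within chr2:186630797-186633374, plus strand, in the extracellular part.
ITGAV inner segment: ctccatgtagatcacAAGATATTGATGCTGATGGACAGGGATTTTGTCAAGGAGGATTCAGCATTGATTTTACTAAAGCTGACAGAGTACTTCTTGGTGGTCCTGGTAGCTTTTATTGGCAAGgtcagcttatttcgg

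The 4 tails have the same base at 11 of their first 18 positions. In global alignment the A tails of ITGA3 and ITGA6 shared 70 identical bases in 114 columns (61.4%) and their B tails 97 in 170 columns (57.1%). The A and B tails of ITGA6 shared 75 identical bases in 160 columns (46.9%), and those of ITGA3 79 in 153 columns (51.6%). As a share of aligned columns, each tail was closer to its counterpart in the other gene than to the other tail of its own gene. Columns with gaps count against that share, and the A and B tails differ in length. By number of identical bases the B tails were closest to each other. Each A tail, by that number, shared more with the B tail of its own gene than with the other A tail.

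The integrin mRNA of these cells was mostly that of the laminin-binding alpha chains and their beta 1 partner. In the si-v library the levels in FPKM were 215 for ITGB1, 195 for ITGA3, 100 for ITGA6, 28.5 for ITGA5, 21.8 for ITGB5, 14.2 for ITGAV, 3.61 for ITGB4, 3.57 for ITGB3 and 3.24 for ITGA2. In the si-NC library they were 267 for ITGB1, 143 for ITGA3, 96.7 for ITGA6, 25.3 for ITGA5, 17.8 for ITGAV, 14 for ITGB5, 10.5 for ITGA2, 3.43 for ITGB4 and 1.88 for ITGB3. The first 4 places were the same in both libraries, ITGAV and ITGB5 stood in opposite order, and ITGA2 was the lowest of the 9 in the si-v library but above ITGB4 and ITGB3 in the si-NC library. ITGB1 lay above 98.5% of the 11046 genes in the si-v library and above 99.0% in the si-NC library.

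**Figure D1:**
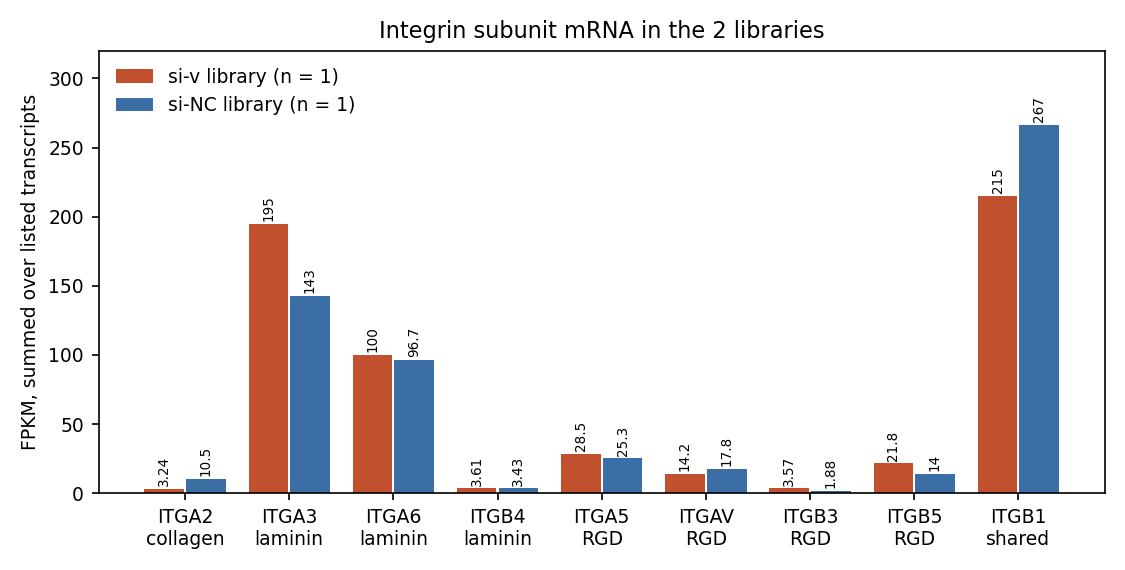
Level of each integrin gene, in FPKM summed over its listed transcripts, in the si-v library and in the si-NC library (1 library each, so no error bars), with the ligand class under the name. ITGB1, ITGA3 and ITGA6 stand above the other 6 genes in both libraries, and ITGA2 is at 3.24 FPKM in the si-v library and 10.5 FPKM in the si-NC library.

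Of the 9 genes, 6 had a ratio above 1 and 3 below it, against 50.4% of all genes above. The log2 ratio used throughout is log2((si-v + 1)/(si-NC + 1)) on FPKM, and a gene was counted as different at 2-fold on this scale. By that rule 1 of the 9 genes differed, ITGA2, which was lower, and 0 were higher. The background was 4.86% of all genes in either direction, 2.49% lower and 2.37% higher, and a count of 1 in 9 is not set apart from it. At 1.5-fold 3 of the 9 genes were counted (ITGA2 lower, ITGB3 and ITGB5 higher) against 18.7% of all genes (9.82% higher and 8.91% lower). The median log2 ratio over the 9 was 0.06.

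The collagen-binding chain gave the largest log2 ratio, in size, of the 9 genes. ITGA2, on chromosome 5, is listed with a single transcript, ITGA2-201, which is the only coding transcript in the annotation. It stood at 3.24 FPKM in the si-v library and 10.5 FPKM in the si-NC library, a log2 ratio of -1.44. In RNA from a whole culture, fewer cells with the mRNA and less mRNA per cell cannot be told apart. These values rest on about 309 fragments in the si-v library and 927 in the si-NC library, with a fragment log2 ratio of -1.67 and a 95% counting interval of -1.86 to -1.48. The interval leaves out the spread between cultures, which 1 library per group cannot give. Of the 11046 genes, 148 (1.34%) had a ratio at least as far from 0. Under the 8 alternative settings its log2 ratio lay between -1.67 and -1.23. Settings that choose among transcripts could not move it from -1.44, since only 1 transcript is listed. As a share of the summed FPKM of the 5 alpha chains, ITGA2 made up 0.949% in the si-v library and 3.58% in the si-NC library.

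The laminin-binding alpha chains were level or higher in the si-v library. ITGA3, on chromosome 17, stood at 195 FPKM in the si-v library and 143 FPKM in the si-NC library (log2 ratio 0.45, counting interval 0.45 to 0.54 around a fragment ratio of 0.50). It had the largest difference in FPKM of the alpha chains, and it made up 57.2% of the summed alpha chains in the si-v library and 48.7% in the si-NC library. ITGA6, on chromosome 2, was close in level at 100 FPKM in the si-v library and 96.7 FPKM in the si-NC library (log2 ratio 0.05, and -0.08 on approximate fragments per gene). Together ITGA3 and ITGA6 gave 295 FPKM in the si-v library, 86.5% of the alpha chains, and 240 FPKM in the si-NC library, 81.7% of them.

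The laminin-binding beta chain was low. ITGB4, on chromosome 17, encodes the long-tailed beta 4 chain that pairs with alpha 6, and it stood at 3.61 FPKM in the si-v library and 3.43 FPKM in the si-NC library (log2 ratio 0.06). The si-v value includes 1.10 FPKM on ITGB4-213, a transcript of 603 bases that is listed at 0 in the si-NC library. Transcripts of at least 3000 bases summed to 2.52 FPKM in the si-v library and 3.43 FPKM in the si-NC library, a log2 ratio of -0.33, so the direction turned with the transcripts counted. The gene overlaps GALK1 on the other strand, which stood at 13.8 FPKM in the si-v library and 9.56 FPKM in the si-NC library; the strand setting is not given in the sources used here, and its part in the ITGB4 values was not tested.

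Among the RGD-binding chains the alpha chains were close and the beta chains higher in the si-v library. ITGA5, on chromosome 12, the fibronectin receptor alpha chain, stood at 28.5 FPKM in the si-v library and 25.3 FPKM in the si-NC library (log2 ratio 0.17). ITGAV, on chromosome 2, which pairs with beta 1, beta 3 and beta 5, stood at 14.2 FPKM in the si-v library and 17.8 FPKM in the si-NC library (log2 ratio -0.31). The sum of these alpha chains was 42.7 FPKM in the si-v library and 43.1 FPKM in the si-NC library. Both lay within 1.5-fold.

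ITGB3, on chromosome 17, the partner of alpha V in the vitronectin receptor, stood at 3.57 FPKM in the si-v library and 1.88 FPKM in the si-NC library (log2 ratio 0.67). It rests on about 148 fragments in the si-v library and 82 in the si-NC library, with a fragment log2 ratio of 0.75 and a counting interval of 0.35 to 1.16. ITGB5, on chromosome 3, another partner of alpha V, stood at 21.8 FPKM in the si-v library and 14 FPKM in the si-NC library (log2 ratio 0.60, counting interval 0.25 to 0.59 around a fragment ratio of 0.42). Part of the ITGB3 difference and most of the ITGB5 difference, in FPKM, lay on short transcripts. Transcripts of at least 3000 bases gave ITGB3 2.69 FPKM in the si-v library and 1.81 FPKM in the si-NC library (log2 ratio 0.39). They gave ITGB5 10.5 FPKM in the si-v library and 8.73 FPKM in the si-NC library (log2 ratio 0.24). On these transcripts neither gene reached 1.5-fold.

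ITGB1, on chromosome 10, the beta chain shared by the collagen, laminin and fibronectin receptors, stood at 215 FPKM in the si-v library and 267 FPKM in the si-NC library (log2 ratio -0.31). It made up 88.1% of the summed FPKM of the 4 beta chains in the si-v library and 93.2% in the si-NC library. ITGB5 made up 8.93% of that sum in the si-v library and 4.90% in the si-NC library. These shares include short transcripts, and the libraries lay closer on transcripts of at least 3000 bases. There ITGB5 stood at 10.5 FPKM in the si-v library and 8.73 FPKM in the si-NC library. ITGB1 stood at 177 FPKM in the si-v library and 200 FPKM in the si-NC library on those transcripts. The 5 alpha chains summed to 341 FPKM in the si-v library and 293 FPKM in the si-NC library, and the 4 beta chains to 244 FPKM in the si-v library and 286 FPKM in the si-NC library. The larger sum was therefore that of the alpha chains in both libraries, and the sums lay further apart in the si-v library.

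**Figure D2:**
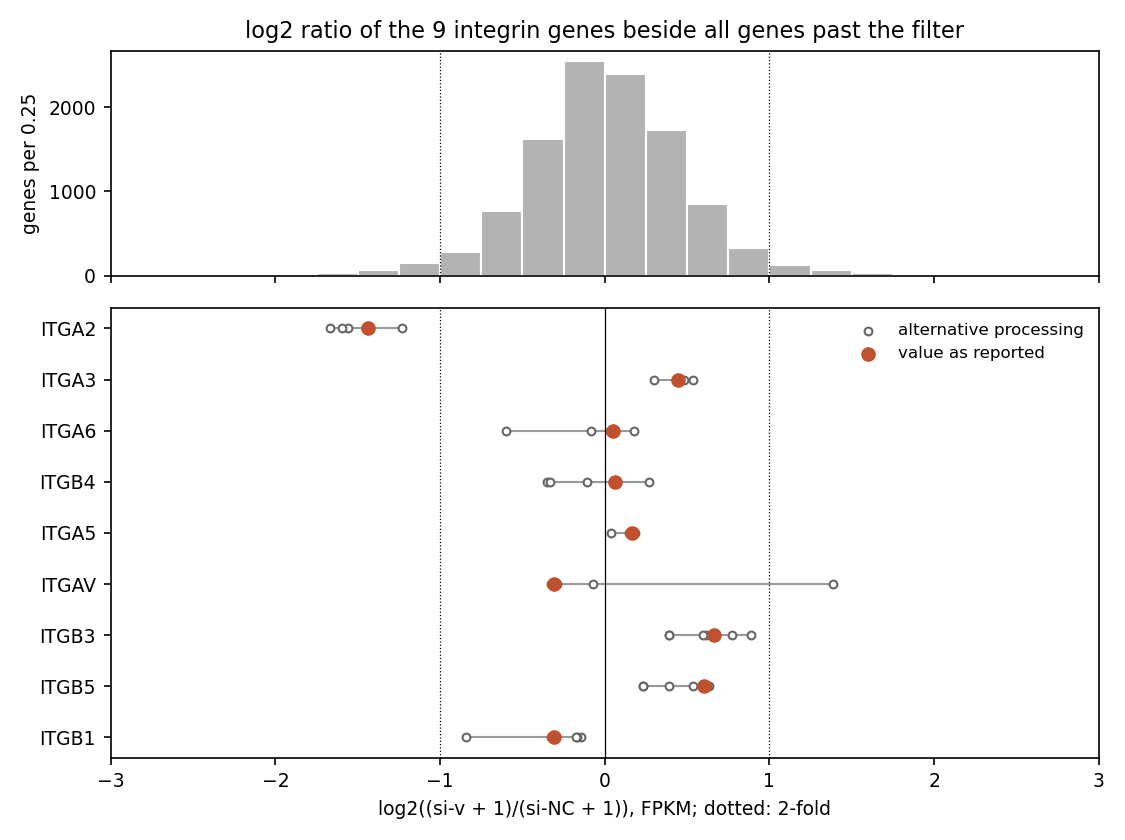
Upper panel, number of genes past 1 FPKM in each log2 ratio bin of 0.25 (ratios beyond 3 counted in the end bins); lower panel, log2 ratio of si-v over si-NC for the 9 genes, as reported (filled) and under the 8 alternative settings (open), with dotted lines at 2-fold. ITGA2 stays below -1 under each setting, and ITGAV reaches 1.38 when read from its most abundant transcript only.

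Below the level of the gene, the libraries differed more. For each gene with at least 2 listed transcripts and at least 1 FPKM in both libraries, the usage shift was the share of FPKM that would have to move between transcripts to make the libraries alike. Over the 8121 such genes its median was 13.9 percentage points. Over the 7 integrin genes with several listed transcripts it was 33.5 points. The most abundant transcript differed between the libraries in 3 of the 7 (ITGA6, ITGAV and ITGB4), against 25.5% of the 8121 genes. A shift of at least 50 points was found in 2 of the 7 (ITGA6 and ITGAV), against 10.8%. The counts are small and no test was made. The division of reads among transcripts that share most of their sequence is the authors' estimate, and its error is not given in the sources used here.

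ITGA6, close in summed level, had a shift of 57.0 points, which 639 of the 8121 genes (7.87%) reached. ITGA6-206, which holds X1, X2 and the B tail, stood at 56.5 FPKM in the si-v library and is listed at 0 in the si-NC library. ITGA6-207, which holds X2 and the B tail, stood at 3.13 FPKM in the si-v library and 35.1 FPKM in the si-NC library. ITGA6-201, which holds X1 and the A tail, stood at 33.2 FPKM in the si-v library and 50.7 FPKM in the si-NC library. ITGA6-202, with X1 and the B tail, stood at 4.95 FPKM in the si-v library and 8.28 FPKM in the si-NC library.

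Sums by segment took transcripts of at least 3000 bases that reached 1 FPKM in at least 1 library. That left out ITGA6-203, of 3544 bases, at 0.880 FPKM in the si-v library and 0.960 FPKM in the si-NC library. The B tail was on 64.6 FPKM (64.6% of the gene) in the si-v library and on 43.4 FPKM (44.9%) in the si-NC library. The A tail was on 33.2 FPKM (33.2%) in the si-v library and on 50.7 FPKM (52.5%) in the si-NC library. X1 was on 94.6% of the gene in the si-v library and 61.1% in the si-NC library, and X2 on 59.7% in the si-v library and 36.3% in the si-NC library. The models ITGA6-206 and ITGA6-207 are 3393 and 3261 bases long, against 5618 for ITGA6-201, and differ from each other by X1 only. Their coding sequences take up 3390 and 3258 of those bases, against 3219 for ITGA6-201. So ITGA6-206 and ITGA6-207 hold almost no untranslated sequence, and the part of this in the shares was not tested. Shares of FPKM depend on these lengths. In the si-v library ITGA6-206 had 56.5 FPKM on about 2330 fragments, and ITGA6-201 33.2 FPKM on about 2260. In the si-NC library ITGA6-207 had 35.1 FPKM on about 1290 fragments, and ITGA6-201 50.7 FPKM on about 3200.

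**Figure D3:**
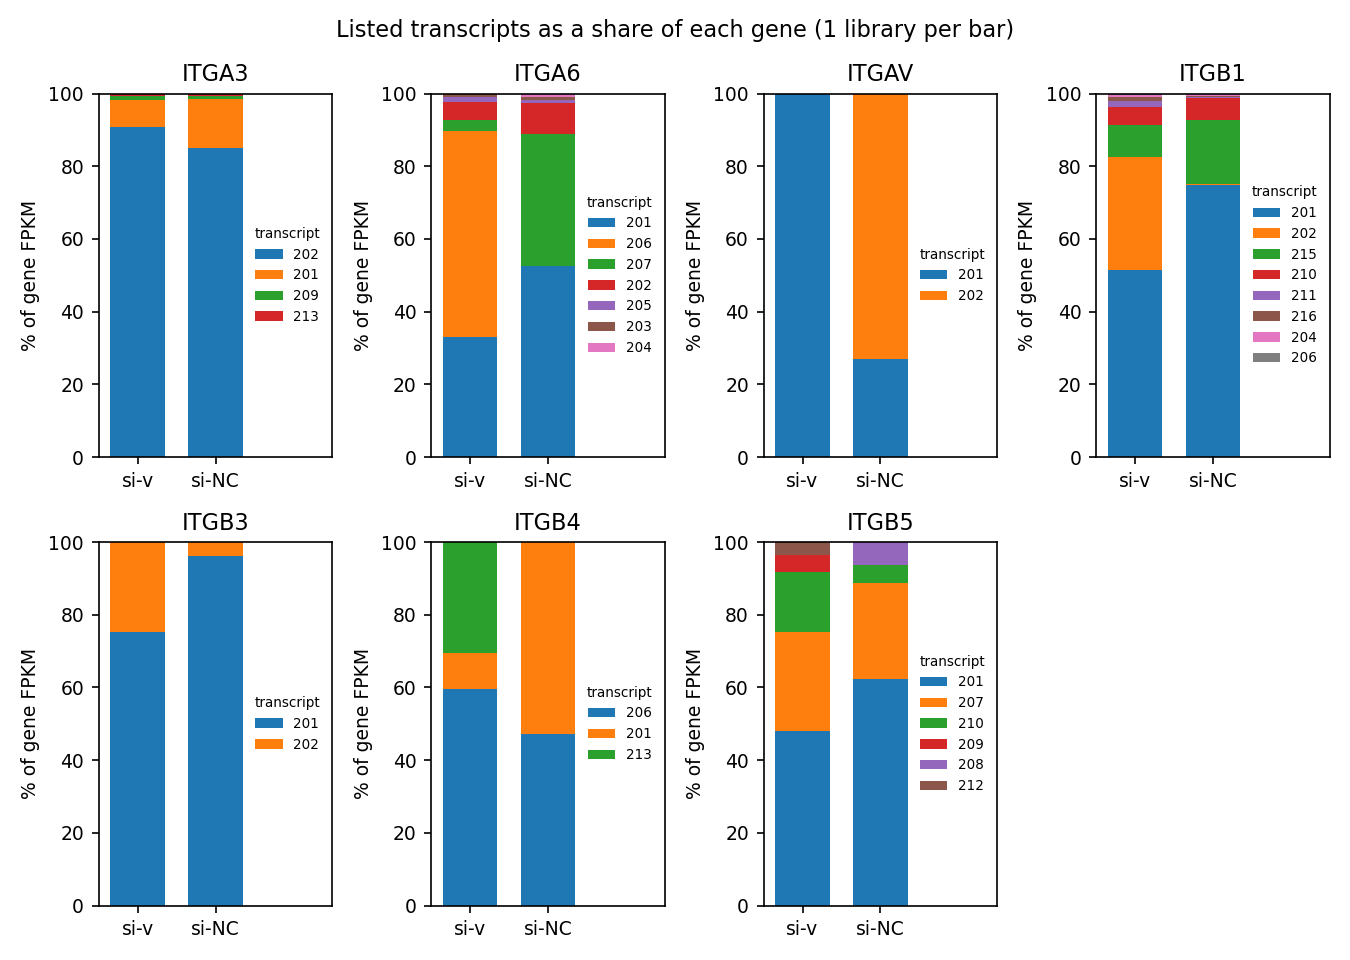
Share of each gene's FPKM on each listed transcript, in percent, in the si-v library and in the si-NC library, for the 7 integrin genes with several listed transcripts; colours are transcript numbers within a gene. ITGA6-206 takes 56.5% in the si-v library and is listed at 0 in the si-NC library, and ITGAV-202 is listed at 0 in the si-v library and takes 72.9% in the si-NC library.

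ITGAV had the largest shift of the 7, 72.9 points, which 267 of the 8121 genes (3.29%) reached. ITGAV-201, which holds the inner segment of 108 bases, stood at 14.2 FPKM in the si-v library and 4.82 FPKM in the si-NC library. ITGAV-202, which lacks it, is listed at 0 in the si-v library and stood at 13.0 FPKM in the si-NC library. Read from ITGAV-201 only, the log2 ratio was 1.38, opposite in sign to that of the gene.

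ITGA3 was read mostly from its A tail form, 90.7% of the gene in the si-v library and 85.0% in the si-NC library. ITGA3-202, with the A tail, stood at 177 FPKM in the si-v library and 121 FPKM in the si-NC library. ITGA3-201, with the B tail, stood at 14.5 FPKM in the si-v library and 19.2 FPKM in the si-NC library. The B tail share of the gene was 7.46% in the si-v library and 13.5% in the si-NC library. So the B tail share was higher in the si-v library for ITGA6 and lower there for ITGA3, and the shift of 6.07 points in ITGA3 was below the median over all genes.

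**Figure D4:**
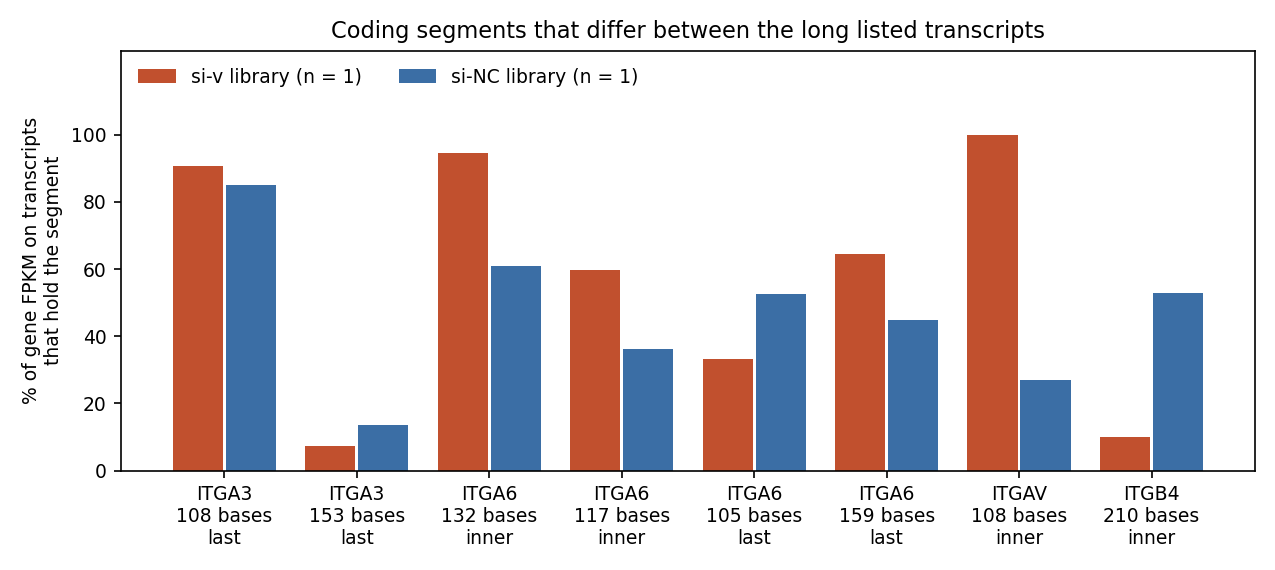
Share of each gene's FPKM, in percent, on transcripts that hold a given coding segment, in the si-v library and in the si-NC library (1 library per bar). Transcripts had at least 3000 bases and reached 1 FPKM in at least 1 library. Labels give the segment's length and whether it is the last coding segment (a tail) or an inner one. The ITGA6 tail of 159 bases (B) is at 64.6% in the si-v library and 44.9% in the si-NC library, and the ITGAV segment at 100% in the si-v library and 27.1% in the si-NC library.

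In ITGB1 the shift of 33.5 points included transcripts that encode the same protein chain. ITGB1-201 stood at 111 FPKM in the si-v library and 200 FPKM in the si-NC library. ITGB1-202 stood at 66.7 FPKM in the si-v library and 0.503 FPKM in the si-NC library. Both have the same coding sequence of 2394 bases and differ in their untranslated ends, and together they stood at 177 FPKM in the si-v library and 200 FPKM in the si-NC library (log2 ratio -0.17). The transcript ITGB1-215, of 540 bases, added 19.1 FPKM in the si-v library and 47.2 FPKM in the si-NC library. In ITGB4 the inner segment of 210 bases, in the cytoplasmic part, was on 0.366 FPKM in the si-v library and 1.81 FPKM in the si-NC library, with about 179 fragments in the si-v library and 221 in the si-NC library for the whole gene.

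Of 17 other integrin subunit genes looked up, 5 were listed and the other 12 were not analysed here. ITGA1, a collagen-binding alpha chain, was the only listed gene of them past 1 FPKM, at 1.14 FPKM in the si-v library and 1.33 FPKM in the si-NC library (log2 ratio -0.12). Of the ligand genes past 1 FPKM, 0 of 14 laminin and collagen genes and 0 of 10 genes of the RGD ligand list differed by 2-fold. The share of all genes was 4.86%, so that counts of 0 are near the background. The laminin and collagen list had a median log2 ratio of 0.28, with 1 gene 1.5-fold higher and 1 lower, near the 9.82% and 8.91% of all genes. Most ratios of this list were lower after regression on GC content and length, and the others higher, so the median depends on that setting. COL4A1, a basement membrane collagen, stood at 17.6 FPKM in the si-v library and 9.79 FPKM in the si-NC library (0.78), and COL6A1 at 10.7 FPKM in the si-v library and 7.07 FPKM in the si-NC library (0.54, but -1.09 for its most abundant transcript). LAMA5, the laminin alpha 5 chain, stood at 0.800 FPKM in the si-v library and 2.18 FPKM in the si-NC library (-0.82), and LAMC1, the gamma 1 chain, at 61.1 FPKM in the si-v library and 69.0 FPKM in the si-NC library (-0.17).

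The RGD ligand list is read here as ligands of the RGD-binding integrins, and its members were not checked for an RGD site. It had a median of 0.14, with 2 of 10 genes 1.5-fold higher and 0 lower. Over all genes 9.82% were that much higher and 8.91% lower. FBN1, fibrillin 1, stood at 3.71 FPKM in the si-v library and 1.59 FPKM in the si-NC library (log2 ratio 0.86). CYR61, a matricellular protein that binds alpha V integrins, stood at 496 FPKM in the si-v library and 320.2 FPKM in the si-NC library (0.63). SPP1, osteopontin, stood at 3.10 FPKM in the si-v library and 4.31 FPKM in the si-NC library (-0.38, but 0.56 for its most abundant transcript), and vitronectin, VTN, at 1.99 FPKM in the si-v library and 2.78 FPKM in the si-NC library (-0.34).

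Genes that act on the integrin tails from inside the cell were counted against the same 4.86% of all genes at 2-fold. Of 8 activators 0 differed by 2-fold, which is near that share, and the median log2 ratio was 0.00. FERMT3, kindlin 3, stood at 2.81 FPKM in the si-v library and at 0.997 FPKM, under the filter, in the si-NC library (0.93). The FERMT3 ratio was 0.59 on approximate fragments, 0.68 without the GC content and length trend and 0.995 for its most abundant transcript. TLN2, talin 2, stood at 10.1 FPKM in the si-v library and 7.98 FPKM in the si-NC library (0.31, but -0.08 on approximate fragments). FERMT2, kindlin 2, stood at 20.3 FPKM in the si-v library and 29.6 FPKM in the si-NC library (-0.52, and -1.63 when read from its most abundant transcript), and RAP1B, a GTPase that recruits talin, at 46.7 FPKM in the si-v library and 55.1 FPKM in the si-NC library (-0.23). Of 7 inhibitors of activation past 1 FPKM, 0 differed by 2-fold, again near that share, and the median was 0.11. SIPA1, which switches off RAP1, stood at 15.5 FPKM in the si-v library and 10.2 FPKM in the si-NC library (0.55). ITGB1BP1, which binds the beta 1 tail, stood at 35.0 FPKM in the si-v library and 41.6 FPKM in the si-NC library (-0.24), and its binding partner KRIT1 at 14.1 FPKM in both libraries (0.00, but -3.29 for its most abundant transcript).

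Trafficking and membrane partners had the lowest list median, -0.24, with 5 of 15 genes 1.5-fold lower and 1 higher. Over all genes 8.91% were that much lower and 9.82% that much higher. Some of those 5 were less than 1.5-fold lower after regression on GC content and length, on approximate fragments or from the most abundant transcript. RAB11A, the GTPase of the recycling endosome through which internalised integrins return to the surface, was the 1 gene of the list at 2-fold. The share of all genes at 2-fold was 4.86%, and a count of 1 in 15 is not set apart from it. RAB11A stood at 18.8 FPKM in the si-v library and 54.0 FPKM in the si-NC library. Its log2 ratio was -1.47, and between -2.12 and -1.40 when read from its most abundant transcript, from fragments or without the GC content and length trend. NUMB, an endocytic adaptor, stood at 12.6 FPKM in the si-v library and 21.1 FPKM in the si-NC library (-0.70, but -0.15 for its most abundant transcript). SLC3A2, the CD98 heavy chain that binds beta tails, stood at 77.7 FPKM in the si-v library and 50.9 FPKM in the si-NC library (0.60), and GGA3, a sorting adaptor, at 5.46 FPKM in the si-v library and 4.20 FPKM in the si-NC library (0.31).

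**Figure D5:**
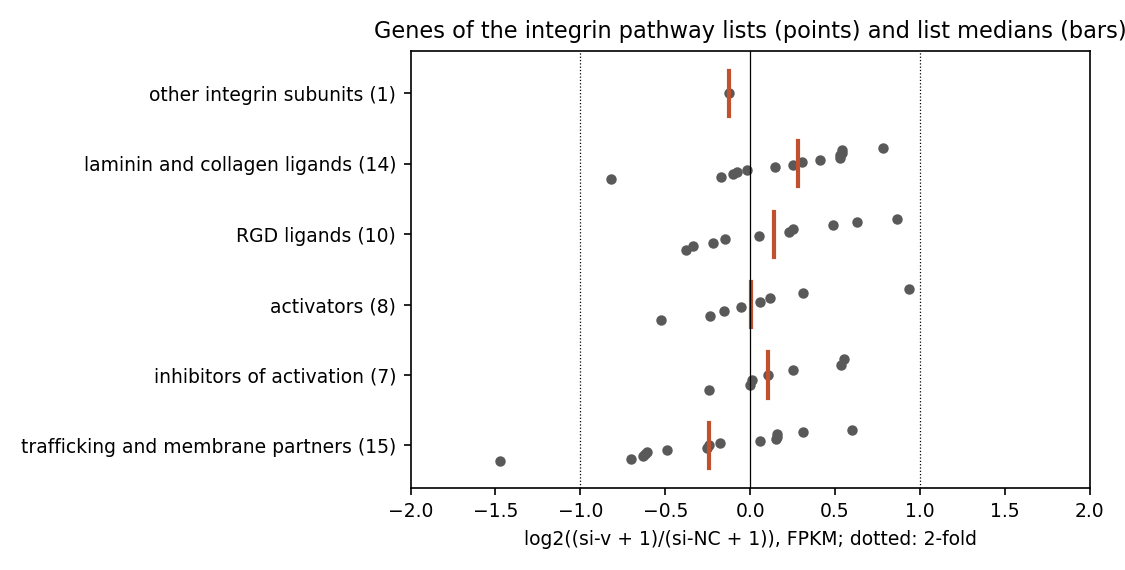
Log2 ratio of si-v over si-NC for each gene past 1 FPKM in the integrin pathway lists (points; numbers of genes in brackets) with the list medians (bars) and dotted lines at 2-fold. RAB11A, at -1.47 among the trafficking partners, is the only gene of these lists beyond 2-fold, against 4.86% of all genes.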

How the data were processed

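RNA from 1 silencer and 1 control culture of MDA-MB-231 cells was sequenced. Per the submitters' processing notes, the tools were cutadapt, HISAT2 2.0.5 and StringTie on hg19, with no role or setting given. The authors' deposited table holds an FPKM value per transcript; the header names no unit, and FPKM is a reading of the values: weighted by transcript length they summed to 69.9% (si-v) and 71.4% (si-NC) of the total that FPKM allows. Annotation release, strand setting and filters: not given in the sources used here.

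The 39605 transcripts were matched by identifier without version to GENCODE release 29 (99.5% matched), and FPKM was summed per gene with Python 3.11.15 and pandas 2.3.3. Genes under 1 FPKM in both libraries were left out of counts, and the pseudocount was 1 FPKM, which understates differences of low genes. The worth of 1 fragment was read from the lowest values of genes with a single listed transcript. Of the 53 (si-v) and 62 (si-NC) values near that peak, 71.7% (si-v) and 75.8% (si-NC) lay within 5% of it, so fragment numbers are approximate: about 8490000 (si-v) and 8020000 (si-NC) on the listed transcripts. The 95% intervals are exact Clopper-Pearson intervals on rounded fragments, without a pseudocount, and cover counting error only. No replicates exist, so no test was made. The steps were tested on simulated data. The alternatives changed the pseudocount, the filter, the scaling or the fold threshold, took the most abundant transcript only or fragments per gene, regressed the ratio on GC content and length or, chosen after seeing the data, kept transcripts of at least 3000 bases only. The 9 members and the lists were chosen with earlier results of these data known. All 9 members were named, and from each list the 2 highest and 2 lowest ratios past 1 FPKM (all where 4 or fewer passed). A gene that this rule named is not reported here. With 2 libraries no likeness of pattern between genes could be computed.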

Additional observations from a re-analysis of the deposited data

How the results depend on the processing

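No paired analysis was possible because each group has 1 library, and no library could be left out. The log2 ratios of the 9 genes were recomputed under 8 settings each. Of the 72 values, 66 lay on the same side of 0 as reported. The other 6 were of ITGA6, ITGAV and ITGB4 (which was at -0.11 after regression on GC content and length). By less than the half-width of the counting interval, 53 moved. Some of the 72 could hardly move, so these counts overstate stability. ITGA2 and ITGA5 have 1 listed transcript, so settings that choose among transcripts repeat their reported values. Setting the median to 0 and upper-quartile scaling moved each gene little. From the most abundant transcript only, the log2 ratio was 0.54 for ITGA3, -0.60 for ITGA6, 1.38 for ITGAV, 0.24 for ITGB5 and -0.84 for ITGB1, those of the summed alpha and beta chains 0.27 and -0.75, and the counts at 2-fold 2 of the 9 genes (ITGA2 and ITGAV) and 1389 of all genes. After regression on GC content and length it was -1.23 for ITGA2, 0.30 for ITGA3, 0.18 for ITGA6, 0.038 for ITGA5, -0.073 for ITGAV and -0.14 for ITGB1. On approximate fragments per gene it was -0.083 for ITGA6, -0.35 for ITGB4, 0.39 for ITGB5 and -0.17 for ITGB1. With transcripts of at least 3000 bases only, a setting chosen after seeing the data, it was -0.33 for ITGB4, 0.24 for ITGB5, -0.17 for ITGB1 and -0.15 for the summed beta chains. With a pseudocount of 0.1 FPKM ITGA2 was at -1.67 and 959 genes passed 2-fold, against 537 as reported. At 1.5-fold 3 of the 9 genes and 2069 of all genes passed. The cause of these differences was not tested. Depth limits ITGB3 and ITGB4 most, with about 82 and 221 fragments in the si-NC library.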
